A study of Mus musculus with 17 samples.

Results

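The response of mouse lung to a 75 Gy dose at the fibrosis stage was read from 6 of the 17 RNA-seq libraries of the series, the 3 titled 75Gy_6w (numbered 3141, 3142 and 3143) and the 3 titled con_6w (3135, 3136 and 3137). These titles alone chose the libraries, and every gene with enough counts was tested, 22052 of the 45777 genes counted. All mice were male wild-type C57BL/6 animals, obtained at 6 weeks of age and housed for a week before the experiment. The irradiated mice received 75 Gy to the left lung in a single fraction through a narrow image-guided beam, the control mice received no radiation, and lungs of both groups were collected 6 weeks later. The methods state that RNA of irradiated lungs came from lesions, so a small, heavily dosed piece of lung was set against lung without a lesion. Each library is numbered, but the labels do not say whether a library is 1 animal, and the p-values therefore measure the spread between libraries. The other 11 libraries, from lungs at 2 weeks and from lungs given 65 Gy, entered the same fit to estimate the spread and are named only where a test or a value needs them.

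The alveolar wall is built from thin type 1 cells, surfactant-secreting type 2 cells, fibroblasts and a dense bed of capillary endothelium, and macrophages keep its surface free of debris and surfactant lipid. Ionising radiation breaks DNA and stops or kills dividing cells, and after high doses to the lung an inflammatory phase is commonly followed by scarring, in which matrix replaces air space. Antibodies are secreted by plasma cells, which arise from B cells and can settle in inflamed tissue.

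Levels are given in CPM, the counts of a gene scaled to a common, TMM-adjusted library size, in the order 3135, 3136 and 3137 for controls and 3141, 3142 and 3143 for 75 Gy. Fold changes are log2 values of 75 Gy over control with their standard error. They were tested with the quasi-likelihood test of edgeR, and adjusted p-values are Benjamini-Hochberg values over all 22052 genes. A gene counted as higher or lower at an adjusted p of 0.05 or less and a log2 fold change of at least 1 in size. By this rule 2297 genes differed, 10.4% of those tested, with 1606 higher (7.28%) and 691 lower (3.13%) after 75 Gy. The rises were also larger. The log2 fold change reached 2 in 751 of the higher genes and in 53 of the lower genes, and its median was 1.89 among the higher and -1.26 among the lower genes against 0.040 over all genes. A mean of at least 1 log2 CPM was reached by 716 of the 1606 higher and 474 of the 691 lower genes, so more of the rises were in scarce genes. A gene with enough counts only in the irradiated libraries had to be higher there. The 3 libraries of one group lay entirely above those of the other for 2251 of the called genes and for 57.1% of all genes tested. Without the threshold on size, 7935 genes had an adjusted p of at most 0.05, 3963 higher and 3972 lower.

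Protein-coding genes accounted for 1238 of the rises and 524 of the falls. Long non-coding RNAs had 195 rises and 138 falls among 3478 tested, and V segments of antibodies and T cell receptors together had 111 rises and 1 fall among 220. Saa3, an acute-phase protein made by inflamed tissue, stood at 0.276, 0.285 and 0.279 CPM in the controls and at 17.3, 26.9 and 19.98 CPM after 75 Gy (log2 fold change 6.24 ± 0.62, adjusted p = 1.1e-05). Chl1, a cell adhesion molecule, went from 0.341, 0.464 and 0.873 to 27.1, 35.8 and 30.1 CPM (5.80 ± 0.34, adjusted p = 7.7e-08). For both genes every irradiated library was far above every control. Among the largest falls were Glp1r, the receptor of glucagon-like peptide 1, from 49.7, 49.05 and 47.1 to 15.1, 7.18 and 8.78 CPM (-2.23 ± 0.31, adjusted p = 1.1e-04), and Ankrd63, from 22.9, 18.4 and 19.1 to 5.298, 2.95 and 2.19 CPM (-2.53 ± 0.45, adjusted p = 7.5e-04). Library 3141 had the highest level of both genes among the irradiated libraries, still below every control. Zbed6 also fell (-2.44 ± 0.40, adjusted p = 4.0e-04), but this gene lies inside Zc3h11a, and reads of overlapping genes may not have been told apart.

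**Figure D1:**
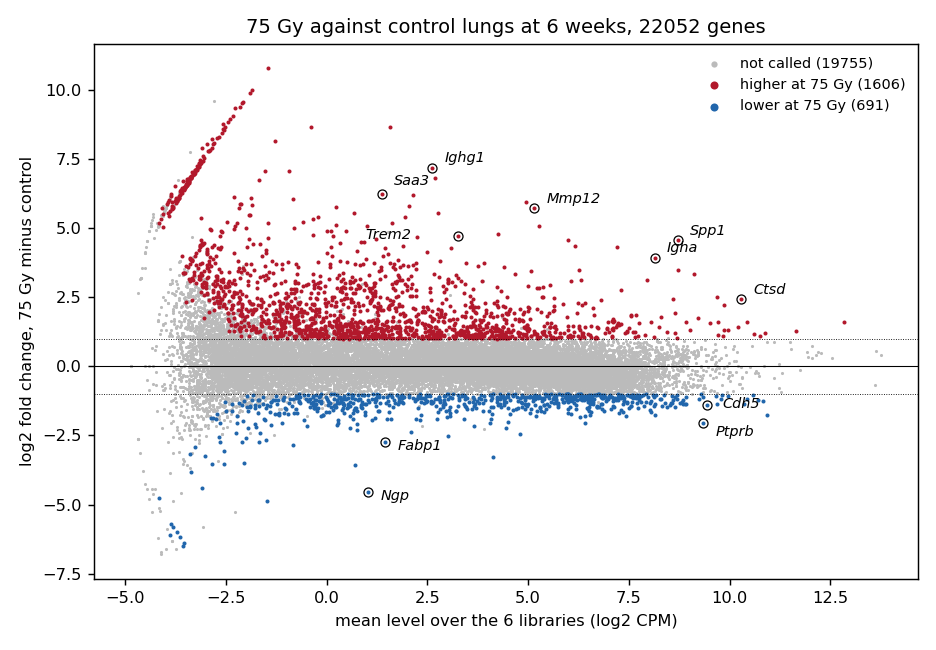
Each point is 1 of 22052 genes, placed by its mean level (log2 CPM, horizontal axis) and its log2 fold change of 75 Gy over control at 6 weeks (vertical axis), with 1606 higher genes in red, 691 lower genes in blue and dotted lines at the size threshold of 1. Antibody genes, Saa3, Mmp12, Trem2 and Spp1 stand at the top, while most falls, such as those of Cdh5 and Ptprb, are shallower and in well-expressed genes.

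The 6 libraries held between 54704261 and 62021693 counts, and more genes were detected after 75 Gy (26071 to 26386) than in controls (24403 to 24679). Lung markers were present throughout, with Sftpc, the surfactant protein of type 2 cells, at 10244, 11602 and 10172 CPM in controls. Control 3135 stood apart by blood-cell genes, with Ngp, a neutrophil granule gene, at 41.3, 1.73 and 3.05 CPM in the controls, and control 3137 by cardiac muscle genes, with Myh6 at 106, 68.7 and 343 CPM. The 18 cardiac genes summed to 325, 254 and 864 CPM in controls and 897, 649.6 and 757 CPM after 75 Gy, ranges that overlap, and 5 were higher and 1 lower. The number higher was 14 without 3137, but 1 without 3135, 3136 or 3143, 2 without 3141 or with a term for transcript length, and 3 without 3142, and none was lower without 3137 or 3142 or with that term. The 15 erythroid genes summed to 4016, 3228 and 3749 and 2369, 1558 and 2144 CPM, with 3 lower and none higher (5 lower without 3141, 6 without 3136 and 8 with the length term). The part these cells had in other results was not tested.

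Fold changes also moved with the length of the transcript. Among 13325 protein-coding genes with a known length, the median log2 fold change went from 0.28 in the shortest 20% (up to 2020 bases) to -0.36 in the longest (from 5348 bases), with 219 rises and 34 falls among the shortest and 44 rises and 205 falls among the longest. The same trend against the control mean was present in each irradiated library (Spearman's rho across genes -0.41, -0.40 and -0.43). It varied in sign among the controls of 6 weeks (0.17, -0.19 and 0.0044). Among the controls of 2 weeks rho was -0.37 in 3126, against 0.050 in 3127 and 0.012 in 3128. Mitochondrial genes took 4.22% to 4.59% of counts in the controls of 6 weeks and 5.97% to 6.48% after 75 Gy. Their share was 6.03% in control 3126 of 2 weeks, 3.86% in 3127 and 3.75% in 3128. RNA quality values were not used here, and the part that RNA integrity had in the trend was not tested. A fit with a length term for each library, chosen after the trend was seen, gave 1488 rises and 624 falls, of which 1337 and 482 were also called without the term. Where that fit ends a call named here, its value is given. Among genes named below that fell short of a call, it called Col3a1 (1.19) and C3 (1.02) higher. It also called Hopx (-1.01), Car4 (-1.06), Scgb1a1 (-1.13) and S100a8 (-1.29) lower. For Col4a3, called in neither fit, the fold change with the term was -0.27. Fold changes also moved with the share of G and C bases in the transcript, and the length term did not remove that trend. The median log2 fold change was 0.088 in the 20% of genes lowest in G and C and -0.14 in the highest. With the length term these medians were 0.20 and -0.16. The cause of this trend was not tested.

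**Figure D2:**
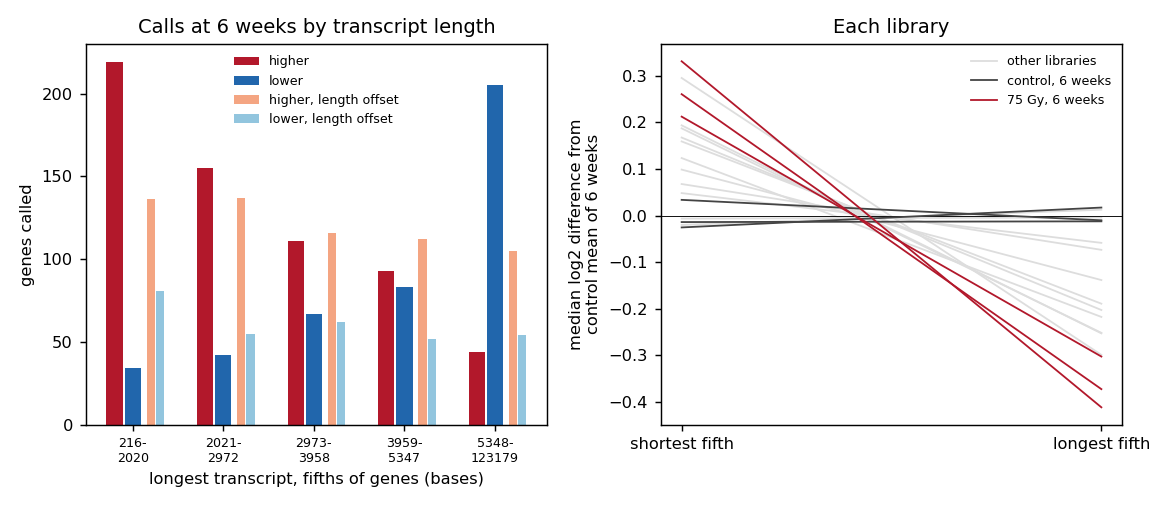
The left panel gives the number of genes called higher or lower in 5 bins of transcript length, with and without the length term. The right panel gives the median log2 difference from the control mean of 6 weeks for the shortest and the longest bin in each of the 17 libraries. Libraries outside the comparison are in pale grey. Rises outnumber falls among short transcripts and falls outnumber rises among long ones (219 to 34 and 44 to 205), and the length term brings the shares closer (136 to 81 and 105 to 54).

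Genes of the vascular endothelium, the inner lining of blood vessels, were lower after 75 Gy. Of 22 pan-endothelial genes tested, 15 fell and 0 rose, and their median log2 fold change was -1.08. Their summed level was 11752, 11665 and 12052 CPM in the controls and 5517, 4449 and 4405 CPM in the irradiated libraries, which is 0.405 times the control mean. The groups did not overlap, and 3141 kept the highest sum of the irradiated libraries. An exact two-sided permutation test over the 6 sums gave p = 0.1, which any sums without overlap give with 3 against 3 libraries. The genes were also chosen with earlier results of these data known. This p-value therefore lends the fall no support, and the sums are a description. In bulk tissue, fewer cells of a type and less RNA per cell cannot be told apart.

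Cdh5 (chr8:104101613-104144504 in GRCm38.p6), which encodes the VE-cadherin of endothelial junctions, stood at 1136, 1086 and 1161 CPM in controls and 510.1, 376 and 394 CPM after 75 Gy (-1.40 ± 0.17, adjusted p = 4.9e-05). Controls differed little from each other, and even library 3141 was below the lowest of them by more than the spread within either group. Receptors of the vascular growth factors fell with it, Kdr from 607, 585 and 603 to 259, 214 and 209 CPM (-1.40 ± 0.17, adjusted p = 5.5e-05) and Flt1 from 371, 359 and 341 to 146, 125 and 109 CPM (-1.49 ± 0.14, adjusted p = 7.8e-06). Tie1, a receptor-like kinase of endothelium, fell to a similar degree (-1.30 ± 0.16, adjusted p = 4.0e-05). Pecam1, the junctional protein often used to stain vessels, was at 825, 874 and 884 CPM in controls and 518, 481 and 489 CPM after 75 Gy, without overlap but short of the size threshold (-0.80 ± 0.14, adjusted p = 5.5e-04). The ligand moved in the same direction as its receptors: Vegfa, which the thin alveolar type 1 cells supply to capillaries, fell from 1338, 1385 and 1278 to 659.6, 571 and 528 CPM (-1.19 ± 0.16, adjusted p = 1.1e-04).

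Genes of both capillary types of the alveolus fell. Of 18 general capillary genes, 12 fell and 1 rose (median -1.35), and of 18 genes of aerocytes, the large capillary cells that face the air, 11 fell and none rose (median -1.18). Ptprb, the endothelial phosphatase that restrains Tie2, is on the general capillary list and fell from 1408, 1308 and 1280.4 to 391, 297 and 287 CPM (-2.04 ± 0.24, adjusted p = 3.6e-05). The gene lies at chr10:116275502-116389538 in GRCm38.p6. The lowest control had more than 3 times the level of the highest irradiated library. The member that rose was Lpl, lipoprotein lipase, which lipid-laden macrophages also make, from 183, 153 and 181 to 647, 543 and 570.3 CPM (1.77 ± 0.16, adjusted p = 5.4e-06). Ednrb, the endothelin receptor that marks aerocytes, fell from 158, 159 and 155 to 72.8, 58.95 and 52.8 CPM (-1.36 ± 0.33, adjusted p = 0.0053), while Car4, a carbonic anhydrase on the same cells, was at 153, 147 and 146 CPM in controls and 96.7, 81.05 and 79.6 CPM after 75 Gy (-0.79 ± 0.25, adjusted p = 0.024). Kit fell as well (-1.54 ± 0.20, adjusted p = 7.0e-05), a receptor held by general capillaries and by mast cells.

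Among 19 genes of large vessels and lymphatics the directions were mixed, with 6 falls and 4 rises. Efnb2, an ephrin of arteries, fell from 320.3, 331 and 329 to 105, 90.4 and 82.99 CPM (-1.81 ± 0.21, adjusted p = 3.2e-05) and Flt4, the growth-factor receptor of lymphatics, from 89.6, 87.7 and 83.6 to 40.96, 28.5 and 29.6 CPM (-1.40 ± 0.16, adjusted p = 2.6e-05). The lymphatic regulator Prox1 was low, at 5.51, 4.14 and 6.13 CPM in controls and 3.48, 3.96 and 3.305 CPM after 75 Gy, and was not called (-0.55 ± 0.19, adjusted p = 0.035). Vwf, the clotting factor stored by endothelium, fell (-1.33 ± 0.22, adjusted p = 4.3e-04), but this call ended with the length term, where the fold change was -0.88.

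Endothelial activation genes went both ways, 5 of 18 higher and 4 lower. Procr, the protein C receptor, went from 3.63, 3.05 and 3.82 to 13.8, 15.2 and 14.6 CPM (2.05 ± 0.19, adjusted p = 5.4e-06), and Lrg1, a secreted glycoprotein that modulates TGF-beta signals in vessels, from 46.98, 36.9 and 58.4 to 255, 169.8 and 191 CPM (2.11 ± 0.23, adjusted p = 1.8e-05). Thbd, thrombomodulin, which works with Procr to activate protein C, moved the other way, from 762, 797 and 761 to 334, 305 and 270.3 CPM (-1.35 ± 0.24, adjusted p = 6.1e-04). The adhesion molecules that draw leukocytes were not called, Icam1 with a fold change of -0.0016 ± 0.088 and Vcam1 with 0.74 ± 0.16. Among 47 genes of vascular tone, 9 fell and 3 rose (5 rose without 3137, 1 without 3143, and 6 with the length term). Ace, the angiotensin-converting enzyme of the lung capillary surface, fell from 1335, 1298 and 1379.6 to 649.8, 457 and 466 CPM (-1.35 ± 0.16, adjusted p = 4.2e-05), and Ece1, which activates endothelin, from 609, 573 and 588 to 299.8, 233 and 226 CPM (-1.22 ± 0.14, adjusted p = 2.8e-05). The prostacyclin receptor Ptgir rose (1.44 ± 0.16, adjusted p = 2.1e-05).

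**Figure D3:**
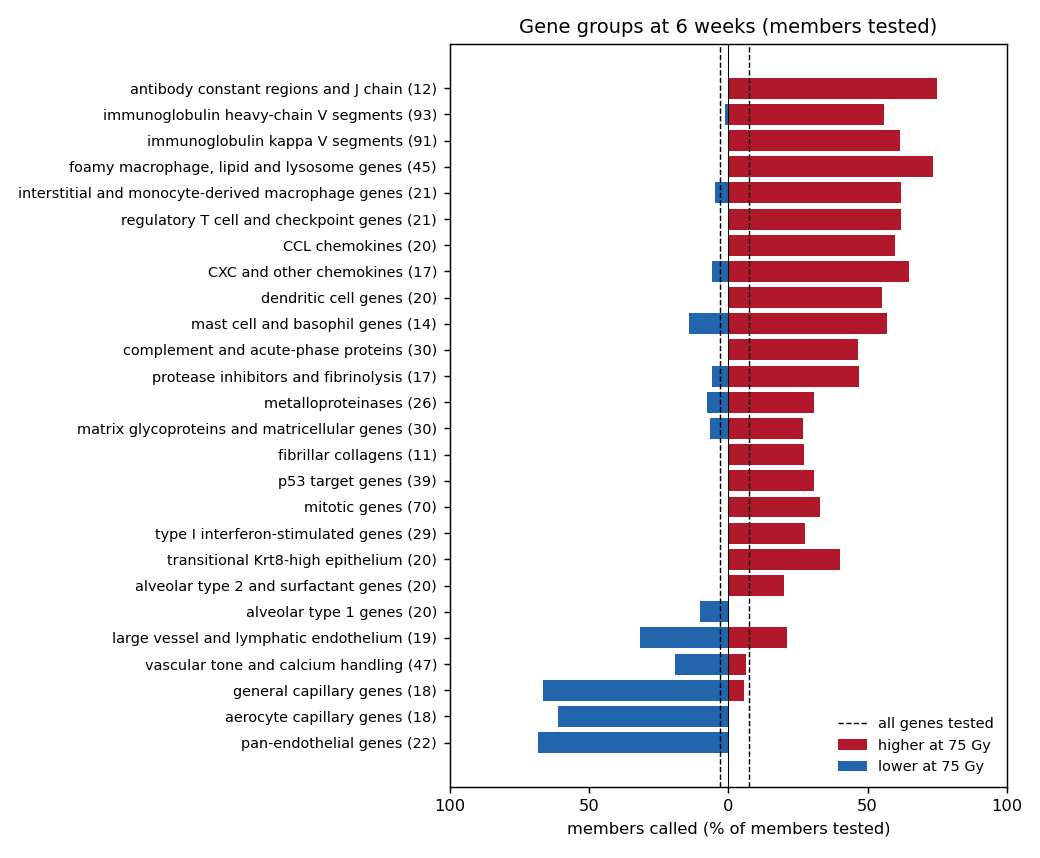
For 26 gene groups, bars give the percentage of tested members called higher (right) and lower (left) after 75 Gy at 6 weeks, and dashed lines mark the shares over all genes, 7.28% and 3.13%. Foamy and interstitial macrophage genes and antibody constant regions lie far to the right, and the pan-endothelial, aerocyte and general capillary groups far to the left.

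Macrophage genes made up the other large block. The foamy state arises when macrophages take up more lipid than they can digest, and its genes encode lysosomal enzymes, lipid carriers and lipid receptors. Of 45 such genes 33 rose and none fell (median 1.56). Trem2 (chr17:48346401-48352276), a lipid-sensing receptor, stood at 2.37, 1.71 and 1.501 CPM in controls and at 52.9, 45.3 and 48.6 CPM after 75 Gy (4.71 ± 0.29, adjusted p = 1.5e-07). Gpnmb, a membrane glycoprotein of lipid-loaded macrophages, went from 19.7, 13.4 and 15.1 to 399, 269 and 309 CPM (4.34 ± 0.30, adjusted p = 3.4e-07) and Ctsd, the lysosomal protease cathepsin D, from 568, 534 and 532 to 3101, 2651 and 2962 CPM (2.42 ± 0.13, adjusted p = 4.4e-08). In all these genes the irradiated libraries were close together and far above the controls. Spp1, osteopontin (chr5:104435111-104441053), which macrophages secrete in scarred tissue, rose from 96.5, 72.6 and 94 to 1789, 1903 and 2521 CPM, the highest in 3143 (4.56 ± 0.31, adjusted p = 3.4e-07).

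Genes of interstitial and monocyte-derived macrophages rose in 13 of 21 cases, with 1 fall, or 2 without 3135 or 3141 (median 1.81). C1qb, a complement subunit made by tissue macrophages, went from 22.6, 24.7 and 21.8 to 225, 264 and 284 CPM (3.48 ± 0.26, adjusted p = 6.7e-07) and Ms4a7, a membrane protein of the same cells, from 2.12, 1.77 and 1.92 to 29.6, 42 and 40.99 CPM (4.27 ± 0.29, adjusted p = 2.5e-07). Ccr2, the receptor by which monocytes enter tissue, rose from 49.4, 32.6 and 35.2 to 119, 177 and 145 CPM (1.91 ± 0.31, adjusted p = 3.3e-04). The fall was that of Lyve1, a hyaluronan receptor shared with lymphatic vessels, from 356, 386 and 312 to 149.9, 138 and 140.2 CPM (-1.30 ± 0.30, adjusted p = 0.0043).

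Markers of resident alveolar macrophages were split, 8 higher and 2 lower of 20. Ctsk, a collagen-degrading cathepsin, rose from 18.2, 15.6 and 17.1 to 149.9, 115 and 126 CPM (2.94 ± 0.16, adjusted p = 4.3e-08) and Atp6v0d2, a subunit of the lysosomal proton pump, from 41.6, 36.8 and 37.9 to 191, 172 and 199 CPM (2.27 ± 0.14, adjusted p = 9.6e-08). Fabp1, a fatty acid binding protein, fell from 7.78, 6.29 and 7.05 to 1.26, 1.22 and 0.694 CPM (-2.73 ± 0.69, adjusted p = 0.0071) and Krt79, a keratin, from 18.1, 15.4 and 13.4 to 4.81, 5.47 and 3.21 CPM (-1.79 ± 0.29, adjusted p = 3.9e-04). Pparg, the regulator on which these macrophages depend, reached 0.83 ± 0.12 (adjusted p = 1.5e-04), without overlap but short of the threshold, and the scavenger receptor Marco overlapped between groups at 9.81, 7.17 and 8.26 CPM in controls and 12.9, 9.59 and 7.91 CPM after 75 Gy.

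Of 20 genes of alternative activation, the state that type 2 cytokines induce, 11 rose and none fell, or 1 without 3135 or 3141 (median 1.68). Retnla, a secreted resistin-like protein, went from 13.3, 12.5 and 14.4 to 187, 367 and 393 CPM (4.55 ± 0.56, adjusted p = 5.2e-05), with library 3141 the lowest of the irradiated libraries but far above every control. Mgl2, a lectin of macrophages and dendritic cells, rose from 13.9, 17.6 and 14.6 to 89.1, 129 and 117 CPM (2.86 ± 0.22, adjusted p = 1.1e-06) and Chil3, a chitinase-like protein, from 402, 281 and 304 to 1003, 1086 and 1229 CPM (1.75 ± 0.32, adjusted p = 8.5e-04). Arg1, the arginase that often stands for this state, was at 2.43, 1.84 and 1.94 CPM in controls and 3.94, 3.08 and 3.67 CPM after 75 Gy and was not called (0.78 ± 0.47, adjusted p = 0.21).

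**Figure D4:**
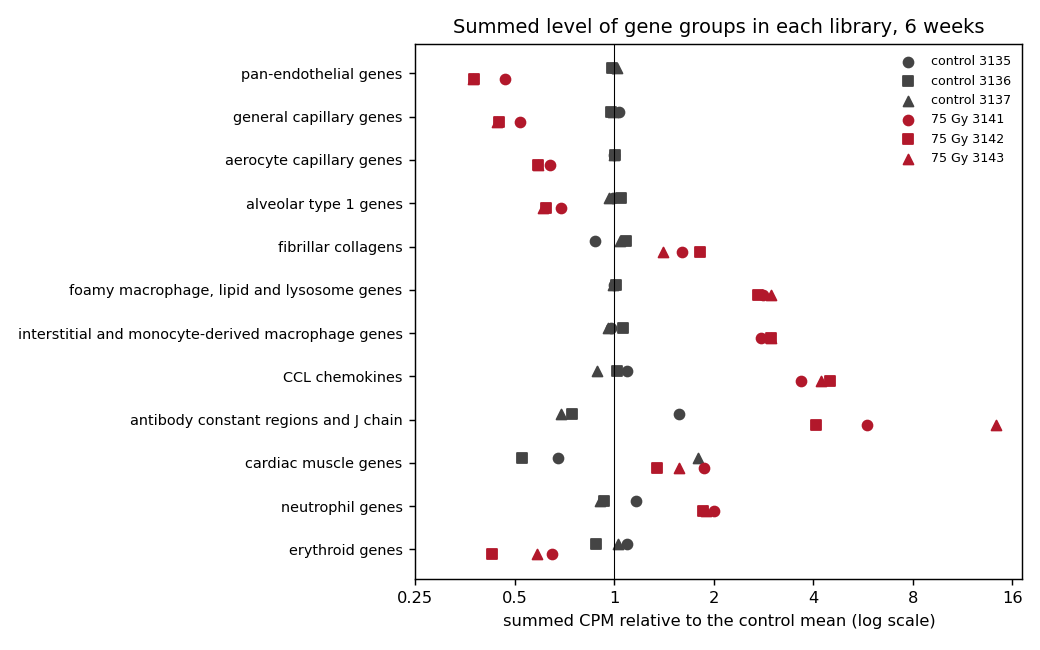
Points give the summed CPM of 12 gene groups in each of the 6 libraries, divided by the control mean of that group, on a log axis. The foamy, interstitial, chemokine and antibody sums of all 3 irradiated libraries lie above every control and the endothelial sums below, while the cardiac sums of the groups overlap.

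Chemokines, the signals that guide leukocytes into tissue, rose in most cases. Among 20 CCL chemokines 12 rose and none fell (median 1.85), and their sum was 323, 303 and 263 CPM in controls and 1089, 1329 and 1247 CPM after 75 Gy. Ccl8 went from 0.665, 1.41 and 1.06 to 27.5, 68.1 and 49.4 CPM (5.53 ± 0.35, adjusted p = 1.7e-07) and Ccl2, the main attractant of monocytes, from 0.8595, 0.481 and 0.611 to 4.76, 7.11 and 7.47 CPM (3.30 ± 0.45, adjusted p = 1.1e-04). Ccl6 was the abundant member, at 194, 165 and 146 CPM in controls and 829, 952 and 918 CPM after 75 Gy (2.42 ± 0.21, adjusted p = 3.3e-06). Of 17 CXC and other chemokines 11 rose and 1 fell (2 with the length term). The interferon-induced attractants of T cells rose strongly, Cxcl9 from 0.551, 0.624 and 0.611 to 13.02, 34.6 and 27.7 CPM (5.39 ± 0.68, adjusted p = 6.0e-05) and Cxcl10 from 0.778, 0.927 and 0.978 to 9.53, 14.7 and 14.4 CPM (3.84 ± 0.53, adjusted p = 1.1e-04). Library 3141 was the lowest irradiated library for these chemokines, and above every control. The fall was Cx3cl1, the membrane-bound chemokine of endothelium and epithelium (-1.14 ± 0.14, adjusted p = 3.8e-05).

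Of 23 chemokine receptors 12 rose and 3 fell. Cxcr6, held by tissue T cells, rose from 4.14, 3.73 and 4.03 to 12.5, 22.98 and 18.6 CPM (2.19 ± 0.26, adjusted p = 4.1e-05). Cxcr3, the receptor of Cxcl9 and Cxcl10, rose less (1.41 ± 0.32, adjusted p = 0.0032). The falls included Ackr2, a decoy receptor that clears chemokines (-1.12 ± 0.15, adjusted p = 8.2e-05), and Cxcr2, the receptor of neutrophils (-1.13 ± 0.20, adjusted p = 5.9e-04). Among 27 genes of the interleukin-1, interleukin-6 and TNF families 9 rose and 1 fell (5 rose without 3143, and none fell without 3143 or with the length term). Il6 went from 1.14, 0.998 and 0.576 to 7.56, 12.3 and 15.5 CPM (3.70 ± 0.56, adjusted p = 2.2e-04) and Lif, a related cytokine, from 3.97, 1.997 and 2.23 to 20.6, 24.96 and 28.2 CPM (3.16 ± 0.35, adjusted p = 2.1e-05). Socs3, the feedback inhibitor of that pathway, rose with them (1.42 ± 0.18, adjusted p = 6.2e-05). Il1b overlapped between groups (54, 33.9 and 33.1 CPM in controls and 50.8, 56.8 and 59.3 CPM after 75 Gy), and Tnf was not called (0.84 ± 0.24, adjusted p = 0.013).

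Genes of regulatory T cells and checkpoints rose in 13 of 21 cases with no fall (median 1.81). Foxp3, the defining factor of regulatory T cells, went from 2.35, 1.605 and 1.27 to 9.19, 10.9 and 10.6 CPM (2.55 ± 0.43, adjusted p = 4.7e-04) and Pdcd1, the PD-1 receptor, from 0.535, 0.4101 and 0.576 to 5.17, 7.36 and 7.39 CPM (3.70 ± 0.41, adjusted p = 2.1e-05). Tnfrsf9, a co-stimulatory receptor, rose from 1.22, 1.05 and 1.15 to 6.97, 10.6 and 10.3 CPM (3.02 ± 0.29, adjusted p = 7.5e-06). Of 22 general T cell genes 5 rose (2, 2 and 1 without 3136, 3137 and 3142) and none fell, with Cd3e at 9.47, 5.85 and 6.09 CPM in controls and 11.9, 10.6 and 9.604 CPM after 75 Gy (0.58 ± 0.27, adjusted p = 0.10) and Cd4 called (1.17 ± 0.25, adjusted p = 0.0026). Cytotoxic genes had 2 rises and 2 falls among 21, but 1 rise without 3135, 3136, 3137, 3142 or 3143, 1 fall without 3143, and 1 rise and 4 falls with the length term. Perforin, Prf1, fell from 14.1, 11.8 and 10.4 to 6.003, 5.94 and 4.22 CPM (-1.17 ± 0.17, adjusted p = 1.6e-04), and Klrg1, a receptor of effector T and NK cells, rose (1.35 ± 0.28, adjusted p = 0.0022).

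Dendritic cell genes rose in 11 of 20 cases with no fall. Xcr1, which marks cross-presenting dendritic cells, went from 2.71, 3.17 and 2.41 to 8.58, 12.2 and 11.1 CPM (1.94 ± 0.26, adjusted p = 7.9e-05), Flt3, the receptor of their growth factor, from 6.26, 7.17 and 5.97 to 13.6, 16.8 and 17.1 CPM (1.29 ± 0.23, adjusted p = 6.9e-04) and Ccl17, a chemokine they secrete, from 2.76, 4.14 and 2.13 to 25.4, 37.9 and 26.5 CPM (3.31 ± 0.36, adjusted p = 2.0e-05). Among 14 mast cell and basophil genes 8 rose and 2 fell, and the falls, Kit and Gata2 (-1.82 ± 0.23, adjusted p = 5.7e-05), are also expressed by endothelium. Cpa3, the carboxypeptidase of mast cell granules, went from 0.762, 0.927 and 1.396 to 9.58, 14.3 and 12.8 CPM (3.57 ± 0.41, adjusted p = 2.7e-05), while the basophil protease Mcpt8 was near the floor of detection (0.503, 0.267 and 0.157 CPM in controls and 0.4101, 0.212 and 0.329 CPM after 75 Gy).

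Neutrophil genes were divided, 4 of 21 higher and 6 lower (9 lower with the length term). Csf3r, the receptor of the neutrophil growth factor, fell from 214, 162 and 167 to 77.1, 66.5 and 52.04 CPM (-1.47 ± 0.29, adjusted p = 0.0015), whereas Lcn2, an antimicrobial protein that epithelium and macrophages also secrete, rose from 91.3, 79.2 and 79.6 to 681, 709.9 and 786 CPM (3.12 ± 0.20, adjusted p = 2.2e-07). The granule gene Ngp fell (-4.53 ± 1.11, adjusted p = 0.0057), but most of its control mean came from library 3135, and without that library its fold change was -1.85 and it was not called. The alarmin S100a8 overlapped between groups at 134, 84.4 and 66.4 CPM in controls and 47.2, 71.7 and 37.4 CPM after 75 Gy.

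Antibody genes were among the largest rises. Of 12 genes of constant regions and the joining chain, 9 rose and none fell (median 3.71), although 1 fell without 3136, 3137, 3141 or 3142 or with the length term. Counts of antibody genes took 0.152%, 0.0708% and 0.0667% of each control library and 0.613%, 0.444% and 1.497% of each irradiated library. Igha, the constant region of the IgA class secreted at mucosal surfaces, stood at 52.1, 103 and 76.5 CPM in controls and 781, 808 and 1929.8 CPM after 75 Gy (3.92 ± 0.59, adjusted p = 2.2e-04). Jchain, which joins secreted IgA and IgM, went from 64.7, 27.1 and 20 to 532, 446 and 1221 CPM (4.30 ± 0.66, adjusted p = 2.6e-04, and 4.96 without control 3135). Library 3143 had more than 2 times the level of 3141 and 3142 in both genes, and these in turn were several times above the highest control. Ighg1, a class of IgG, went from 0.714, 0.143 and 0.838 to 57.5, 63.5 and 127 CPM (7.18 ± 0.66, adjusted p = 5.4e-06). Ighg2c (1.14, 0.571 and 0.628 CPM in controls and 13.1, 8.21 and 153 CPM after 75 Gy, 6.21 ± 1.17, adjusted p = 0.0010) rested in large part on 3143, without which its fold change was 3.78. Ighm, at 730.2, 248 and 253 CPM in controls and 1878, 816 and 4369 CPM after 75 Gy, rose (2.52 ± 0.72, adjusted p = 0.014) but lost its call without 3136, 3137 or 3143.

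The mix of classes shifted as well. Among counts of heavy-chain constant regions, IgM took 82.8%, 60.9% and 65.5% in the controls and 66.8%, 45.7% and 62.9% after 75 Gy, ranges that overlap. IgA took 5.91%, 25.3% and 19.8% in controls and 27.8%, 45.2% and 27.8% in irradiated libraries. IgD, which naive B cells carry on their surface, took 10.1%, 12.6% and 13.5% and then 1.33%, 1.94% and 0.372%. The IgD share was therefore lower and the IgA share higher in each irradiated library than in any control. Ighg1 made up 0.0809%, 0.0350% and 0.217% of these counts in controls and 2.05%, 3.55% and 1.83% after 75 Gy.

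V segments, which encode much of the antigen-binding part of each chain, rose in 52 of 93 heavy-chain and 56 of 91 kappa cases with 1 fall in all (medians 2.26 and 2.53). The files held 183 heavy-chain and 162 kappa segments, and those left out had too few counts. A segment that passed the minimum only through the irradiated libraries had to be higher there, so these counts are a description. They depended on single libraries, with 34, 34 and 32 heavy segments higher without 3136, 3137 and 3143, and 34 and 36 kappa segments without 3137 and 3143. With the length term 37 heavy and 41 kappa segments were higher (medians 1.80 and 2.04). A few segments dominated each irradiated library, and the leading one differed between them. Among heavy V counts the leading segment was Ighv1-54 in 3141 (29.1%), Ighv1-63 in 3142 (16.1%) and Ighv1-80 in 3143 (40.3%), while Ighv1-54 was second in 3142 (13.03%) and 3143 (14.6%). Among kappa V counts it was Igkv4-91 in 3141 (33.8%), Igkv1-110 in 3142 (29.7%) and Igkv1-117 in 3143 (52.2%), with Igkv1-110 second in 3141 (26.9%) and 3143 (11.7%). Controls 3136 and 3137 were even, with leading shares of 5.41% and 6.98% for heavy and 8.46% and 6.47% for kappa segments, but control 3135 was led by Ighv1-54 (38.3%) and Igkv4-91 (30.5%), as was library 3141. Segments share much of their sequence, and reads that match several segments may have been split or dropped, so these shares are uncertain.

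Genes that mark the antibody-making cells were called less widely. Among 24 plasma cell genes other than antibodies 5 rose and none fell (2 rose without 3143 and 2 with the length term). Slamf7, a receptor of plasma cells that macrophages and NK cells also carry, went from 10.04, 8.41 and 7.58 to 37.8, 38.9 and 45.1 CPM (2.23 ± 0.35, adjusted p = 2.9e-04). Sdc1, syndecan-1, was at 272, 297 and 276 CPM in controls and 377, 338 and 344 CPM after 75 Gy, levels that lung epithelium shares (0.33 ± 0.078, adjusted p = 0.0050). Tnfrsf17, the survival receptor BCMA, was at 0.243, 0.499 and 0.262 CPM in controls and 0.935, 0.655 and 1.79 CPM after 75 Gy (1.75 ± 0.76, adjusted p = 0.085) and was not called. Of 23 mature B cell genes 3 fell and 1 rose, the latter being Ighm. The number lower was 9 without 3136 or 3137, 5 without 3141 or 3142 or with the length term, and 1 without 3135 or 3143. Ms4a1, the CD20 antigen, was at 73.8, 37.4 and 39.4 CPM in controls and 34.7, 34.2 and 26.7 CPM after 75 Gy and was not called (-0.66 ± 0.36, adjusted p = 0.17).

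Receptors that bind antibodies rose in 7 of 12 cases, none falling. Fcgr3 went from 37.5, 33.4 and 31.6 to 144, 182 and 172 CPM (2.28 ± 0.28, adjusted p = 5.2e-05), Fcgr2b, the inhibitory receptor, from 27.9, 23.2 and 23.4 to 74.1, 123 and 112 CPM (2.05 ± 0.39, adjusted p = 0.0011) and Fcgr1 from 3.73, 3.69 and 2.72 to 16.2, 19.8 and 18.7 CPM (2.43 ± 0.40, adjusted p = 4.2e-04), all receptors of IgG on myeloid cells. Pigr, which carries IgA across epithelium, overlapped between groups (0.32 ± 0.42, adjusted p = 0.58). Of 22 signals for B cell survival and lymphoid tissue 6 rose, among them Cxcl13, the attractant of B cells, from 1.96, 2.55 and 2.53 to 5.18, 8.95 and 8.34 CPM (1.67 ± 0.31, adjusted p = 9.8e-04). Tnfsf13b, the survival factor BAFF, was not called (0.31 ± 0.10, adjusted p = 0.026).

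Matrix genes, the substance of a scar, moved moderately at this stage. Of 11 fibrillar collagen genes 3 rose and none fell (median 0.79; 5 rose with the length term and 5 without library 3136). Col3a1 stood at 412, 556 and 499.5 CPM in controls and 894, 1094 and 824 CPM after 75 Gy, without overlap and just short of the threshold (0.94 ± 0.19, adjusted p = 0.0018), and it passed with the length term (1.19) and without 3136 (1.04) or 3143 (1.04). Col1a1, the main collagen of scar tissue, overlapped between groups at 180.05, 216 and 223 CPM in controls and 290.1, 251 and 201 CPM after 75 Gy (0.26 ± 0.21, adjusted p = 0.36). Col5a2, which starts and sizes the fibrils, rose from 106, 122 and 114 to 249, 322 and 250.04 CPM (1.27 ± 0.12, adjusted p = 5.0e-06) and Col24a1, a minor fibrillar collagen, from 0.308, 0.606 and 0.524 to 2.805, 3.13 and 1.61 CPM (2.39 ± 0.41, adjusted p = 5.1e-04).

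Basement membrane and network collagens had 2 rises and no fall among 11. Col15a1, found in the outer layer of basement membranes, went from 9.67, 11.6 and 15.9 to 35.5, 44.5 and 38.1 CPM (1.67 ± 0.25, adjusted p = 2.4e-04). Col10a1 was listed at 0 in the controls and at 0.08201, 0.318 and 0.128 CPM after 75 Gy, too few counts for a fold change. Col4a1 overlapped at 1039, 1076 and 1103 CPM in controls and 1363, 1257 and 1055 CPM after 75 Gy, and Col4a3, a chain of the alveolar basement membrane, was at 536, 542 and 506 CPM in controls and 402, 296 and 274 CPM after 75 Gy (-0.70 ± 0.17, adjusted p = 0.0045). Other collagens had 3 rises and 1 fall among 21. Col28a1 rose from 2.21, 1.94 and 2.55 to 11.8, 19.3 and 17.1 CPM (2.84 ± 0.24, adjusted p = 3.1e-06) and Col22a1 from 0.178, 0.2496 and 0.244 to 1.64, 1.79 and 1.59 CPM (2.89 ± 0.25, adjusted p = 3.7e-06), whereas Col17a1, a collagen that anchors epithelium, fell (-1.34 ± 0.24, adjusted p = 7.5e-04). Crosslinking enzymes had 1 rise and 1 fall among 24 (no fall without 3142 or 3143 or with the length term), and lysyl oxidase, Lox, was at 84.2, 72.5 and 88.8 CPM in controls and 102, 101 and 102 CPM after 75 Gy (0.31 ± 0.12, adjusted p = 0.047).

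Elastin itself, Eln, rose from 86.2, 114 and 99.3 to 401, 368 and 299.9 CPM (1.84 ± 0.26, adjusted p = 1.3e-04), with no overlap between the groups. Of 17 elastic fibre genes, Eln included, 2 rose and 2 fell (1 fell without 3136, 3137, 3142 or 3143). One of the falls, Fbn2, a fibrillin, lost its call with the length term (-0.67). Mfap5, a microfibril component, rose (1.10 ± 0.23, adjusted p = 0.0023) and Ltbp4, which tethers TGF-beta and guides elastin assembly, fell from 678, 786 and 785 to 385, 256 and 224 CPM (-1.38 ± 0.26, adjusted p = 0.0010). Of 30 matrix glycoproteins 8 rose and 2 fell (1 with the length term). Fn1, fibronectin, the early scaffold of repair, went from 635, 596 and 677 to 1674, 1557 and 1509.9 CPM (1.31 ± 0.14, adjusted p = 1.8e-05) and Tnc, tenascin C, from 17.6, 15.9 and 14.5 to 59.8, 69.3 and 64.02 CPM (2.01 ± 0.29, adjusted p = 1.5e-04). Postn, periostin, overlapped between groups at 432, 452 and 431 CPM in controls and 410.01, 473 and 424 CPM after 75 Gy (-0.0087 ± 0.18, adjusted p = 0.97). Igfbp3, a carrier of insulin-like growth factors, fell (-1.16 ± 0.24, adjusted p = 0.0019). Proteoglycan genes rose in 5 of 18 cases, among them Lum, lumican, from 8.66, 10.7 and 9.91 to 21.1, 22.8 and 20.5 CPM (1.14 ± 0.19, adjusted p = 3.8e-04) and Has2, the hyaluronan synthase, from 0.373, 0.374 and 0.716 to 2.56, 3.18 and 4.22 CPM (2.76 ± 0.47, adjusted p = 5.4e-04). Dcn, decorin, reached 124, 158 and 191 CPM in controls and 261, 302 and 274 CPM after 75 Gy (0.83 ± 0.18, adjusted p = 0.0024).

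Enzymes that cut matrix rose in 8 of 26 cases and fell in 2, and their inhibitors and the genes of fibrinolysis rose in 8 of 17 and fell in 1 (4 rose without 3143). Mmp12, the macrophage elastase, stood at 6.36, 4.69 and 3.82 CPM in controls and at 279, 239 and 258 CPM after 75 Gy (5.70 ± 0.37, adjusted p = 2.2e-07). Its irradiated libraries lay close together and far above the controls. Mmp19 rose from 23.9, 24.3 and 23.01 to 111, 94.7 and 116 CPM (2.18 ± 0.16, adjusted p = 6.7e-07) and Mmp14, which sits in the cell membrane, from 68.8, 78.5 and 69.02 to 155, 153 and 140.2 CPM (1.05 ± 0.24, adjusted p = 0.0037). Mmp28 fell from 31.3, 34.6 and 30.4 to 13.7, 8.55 and 6.56 CPM (-1.74 ± 0.30, adjusted p = 5.6e-04) and Mmp9, a gelatinase of neutrophils, from 84.98, 52.1 and 46.8 to 23.6, 19.6 and 14.02 CPM (-1.68 ± 0.30, adjusted p = 7.6e-04). On the inhibitor side, Timp1 rose from 4.17, 4.81 and 3.77 to 20.3, 27.5 and 31.4 CPM (2.63 ± 0.44, adjusted p = 4.5e-04) and Serpina3n from 81.04, 95.3 and 90.6 to 204, 247 and 302 CPM (1.50 ± 0.23, adjusted p = 2.9e-04). Plau, the urokinase, rose (1.41 ± 0.19, adjusted p = 9.7e-05), and Reck, a membrane inhibitor of metalloproteinases, fell (-1.16 ± 0.17, adjusted p = 1.8e-04).

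The letters TGAGTCA, the binding motif of the AP-1 factors, occur on either strand in a promoter of 6 of 17 metalloproteinase genes (35.3%). They do so for 5.16% of all 27025 genes with a promoter in RefSeq's table for GRCm38.p6. The 250 bases before each gene start were searched. The windows of 4 members on chromosome 9 are shown because all 4 were higher after 75 Gy. Capitals mark the motif, read as TGACTCA where it lies on the other strand, and the windows are chr9:7272454-7272510, chr9:7347305-7347361, chr9:7445751-7445807 and chr9:7502254-7502310, all on the plus strand.
Mmp13: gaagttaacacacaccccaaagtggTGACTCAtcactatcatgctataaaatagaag
Mmp12: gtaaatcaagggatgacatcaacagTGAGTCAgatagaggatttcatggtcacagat
Mmp3: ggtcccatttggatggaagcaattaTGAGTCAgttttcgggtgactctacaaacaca
Mmp10: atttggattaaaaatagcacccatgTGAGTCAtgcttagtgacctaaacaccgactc
The motif lies 28 bases from the start of Mmp13, 37 from that of Mmp12, 39 from that of Mmp3 and 56 from that of Mmp10. Mmp13, a collagenase, rose from 1.09, 0.767 and 0.8902 to 4.05, 5.49 and 4.91 CPM (2.39 ± 0.29, adjusted p = 4.9e-05) and Mmp3, a stromelysin, from 18.3, 20.04 and 22.2 to 35.8, 63.5 and 58.5 CPM (1.38 ± 0.30, adjusted p = 0.0030). Mmp10 was listed at 0 in every control and at 1.67, 2.32 and 2.21 CPM after 75 Gy. Mmp3, Mmp10 and Mmp13 were singled out after their values were seen, and the motif was chosen from 7 motifs counted in 7 groups. The other holders were Mmp7, which had too few counts to be tested, and Adam19, which was not called. The window of Mmp7, chr9:7692002-7692058, lies near the 4 shown. Most holders are therefore neighbours on 1 chromosome and may not be independent, which limits the comparison of 35.3% with 5.16%. A match of letters is a description and no evidence of binding.

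Genes of fibrogenic signals were called in both directions, most of them not at all. Over all genes tested 7.28% rose and 3.13% fell. The shares were 9.68% and 12.9% for TGF-beta and activin genes and 8.33% and 16.7% for BMP genes. They were 10.5% and 5.26% for PDGF and FGF genes, 15.4% and 0% for the EGF family, and 12.1% and 6.06% for Wnt genes. With so few members, shares of rises this near that of all genes are no result about a pathway. Of 31 genes of TGF-beta and activin signalling 3 rose and 4 fell. Tgfb1 overlapped between groups at 81.6, 80.4 and 81.2 CPM in controls and 89.2, 64.3 and 66.2 CPM after 75 Gy (-0.15 ± 0.19, adjusted p = 0.58), while Inhba, the activin A subunit, rose from 1.82, 1.28 and 1.798 to 5.82, 7.13 and 9.18 CPM (2.17 ± 0.43, adjusted p = 0.0015) and Gdf15, a stress-induced member of the family, from 1.18, 1.07 and 1.17 to 8.55, 9.68 and 10.7 CPM (3.07 ± 0.12, adjusted p = 2.1e-09). The endothelial receptors of the family fell, Eng from 589, 555 and 604 to 270.4, 179 and 185 CPM (-1.46 ± 0.19, adjusted p = 8.4e-05) and Acvrl1 from 689, 698 and 733 to 338, 270.2 and 255 CPM (-1.30 ± 0.18, adjusted p = 1.0e-04). In the BMP branch, 2 of 24 genes rose and 4 fell. Bmp6 went from 178, 165 and 179 to 53.4, 37.3 and 35.1 CPM (-2.05 ± 0.28, adjusted p = 1.1e-04) and Smad9, a mediator of its signal, from 21.9, 21.02 and 22.4 to 8.56, 7.27 and 7.32 CPM (-1.50 ± 0.22, adjusted p = 2.1e-04). The rises were those of secreted BMP antagonists, Grem1 from 0.616, 0.0535 and 0.227 to 1.57, 2.95 and 3.21 CPM (3.08 ± 0.68, adjusted p = 0.0029, and 4.17 without control 3135) and Nog from 0.292, 0.2496 and 0.227 to 1.41, 1.203 and 1.21 CPM (2.30 ± 0.25, adjusted p = 1.9e-05). Bmp4 was not called, at 53.3, 53.1 and 48.96 CPM in controls and 56.5, 56.3 and 56.1 CPM after 75 Gy.

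Among 19 PDGF and FGF genes 2 rose and 1 fell (4 fell without 3141, and 2 without 3135 or 3137 or with the length term). Pdgfc rose from 2.4, 2.799 and 2.67 to 8.94, 11.2 and 10.99 CPM (1.98 ± 0.15, adjusted p = 7.9e-07) and Fgf9 from 0.211, 0.1605 and 0.105 to 0.8201, 0.814 and 0.749 CPM (2.30 ± 0.37, adjusted p = 3.4e-04), and Fgfr3 fell (-1.12 ± 0.17, adjusted p = 1.9e-04). Pdgfrb, the receptor of pericytes and fibroblasts, was at 187, 192 and 203 CPM in controls and 147, 119 and 109 CPM after 75 Gy (-0.63 ± 0.18, adjusted p = 0.012). The EGF family had 2 rises among 13 genes, both ligands. Ereg, epiregulin, went from 0.243, 0.125 and 0.192 to 4.25, 6.63 and 8.71 CPM (5.10 ± 0.80, adjusted p = 2.8e-04) and Areg, amphiregulin, from 3.68, 2.34 and 3.002 to 12.5, 23.9 and 26.6 CPM (2.80 ± 0.40, adjusted p = 1.6e-04), while their receptor Egfr was not called (-0.49 ± 0.11, adjusted p = 0.0027). Among 33 Wnt genes 4 rose and 2 fell (1 fell without 3136, 3142 or 3143). The rises included secreted inhibitors, Sfrp1 from 10.3, 15.1 and 16.6 to 87.7, 111 and 103 CPM (2.84 ± 0.23, adjusted p = 1.2e-06) and Dkk2 from 1.12, 1.41 and 1.66 to 5.77, 9.31 and 8.42 CPM (2.49 ± 0.25, adjusted p = 1.2e-05), and Fzd4, a Wnt receptor of endothelium, fell from 150.5, 149 and 148 to 53.4, 52.4 and 51.9 CPM (-1.51 ± 0.16, adjusted p = 1.8e-05). Axin2, a common readout of the pathway, was not called (-0.57 ± 0.18, adjusted p = 0.023).

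The markers of activated fibroblasts and myofibroblasts showed 2 rises and no fall among 19. Acta2, the smooth muscle actin that defines myofibroblasts, overlapped between groups at 143, 159.6 and 231 CPM in controls and 152, 235 and 248 CPM after 75 Gy (0.25 ± 0.25, adjusted p = 0.47), as did Fap, the fibroblast activation protein (0.39 ± 0.19, adjusted p = 0.12). The rises were Tnc, given above, and S100a4, a calcium-binding protein that macrophages also make, from 20.6, 19.97 and 14.3 to 61.4, 88.6 and 80.1 CPM (2.07 ± 0.31, adjusted p = 2.3e-04). Among 20 genes of resident lung fibroblasts 2 rose and 2 fell (4 fell without 3141, and 1 without 3143 or with the length term). Plin2, which coats lipid droplets in lipofibroblasts and in foamy macrophages, rose from 83.1, 88.9 and 82.7 to 199, 202 and 194 CPM (1.22 ± 0.16, adjusted p = 7.9e-05), and Slc7a10, an amino acid carrier, fell from 38.9, 36.1 and 39.5 to 15.5, 13.1 and 11.8 CPM (-1.50 ± 0.34, adjusted p = 0.0037). Smooth muscle and pericyte genes had 2 rises among 17 (1 without 3135, 3136, 3141, 3142 or 3143, and 1 fall without 3135, 3136 or 3141), including Rgs5 of pericytes, from 13.4, 9.199 and 12.5 to 37.3, 49.9 and 51.9 CPM (1.99 ± 0.26, adjusted p = 8.0e-05), and Myh11 was not called (-0.49 ± 0.19, adjusted p = 0.057).

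In the alveolar epithelium, the calls among genes of type 2 cells were all rises and those among genes of type 1 cells all falls. Of 20 type 2 genes 4 rose and none fell (median 0.42). Chil1, a chitinase-like protein, went from 579.5, 615 and 599 to 1695, 1346 and 1406 CPM (1.31 ± 0.15, adjusted p = 2.8e-05) and Il33, an alarm cytokine stored in nuclei, from 89.02, 79.3 and 87.6 to 209, 238 and 215 CPM (1.37 ± 0.18, adjusted p = 6.9e-05). Sftpc reached 18730, 13308 and 14308 CPM after 75 Gy (0.53 ± 0.23, adjusted p = 0.088). Of 20 type 1 genes 2 fell, Vegfa, given above, and Rtkn2, from 312, 309.9 and 296 to 146, 135 and 131 CPM (-1.16 ± 0.21, adjusted p = 6.8e-04), and the median was -0.65. Ager and Hopx, which define the type, were not called (-0.35 ± 0.15 and -0.74 ± 0.19). Their groups did not overlap, as was so for 57.1% of all genes tested.

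Genes of the transitional epithelium that appears between type 2 and type 1 cells during repair rose in 8 of 20 cases with no fall. Cldn4, a tight junction claudin, went from 4.04, 5.95 and 7.12 to 18.03, 21.02 and 26.9 CPM (1.95 ± 0.42, adjusted p = 0.0025) and Clu, clusterin, from 138, 148 and 168 to 419.7, 469 and 494 CPM (1.61 ± 0.16, adjusted p = 1.2e-05). The namesake keratin Krt8 was at 167, 177 and 164 CPM in controls and 247, 298 and 326 CPM after 75 Gy, without overlap but short of the threshold (0.78 ± 0.16, adjusted p = 0.0020). Basal cell keratins were scarce, with Krt5 at 0, 0 and 2.39 CPM in controls and 0, 0.212 and 1.94 CPM after 75 Gy and Krt6a listed at 0 in controls and at 0.131, 0.142 and 0.128 CPM after 75 Gy. In the airways, Cyp2f2, a cytochrome of club cells, fell from 2646, 2655 and 3241 to 1096, 1020.3 and 1491 CPM (-1.24 ± 0.29, adjusted p = 0.0045), and the club cell secretory protein Scgb1a1 was at 14329, 17195 and 16481 CPM in controls and 8426, 10144 and 11122 CPM after 75 Gy (-0.69 ± 0.21, adjusted p = 0.019). Muc5b varied widely among controls (159.96, 64.2 and 366 CPM) and overlapped. Foxj1, the regulator of ciliated cells, was not called (0.46 ± 0.18, adjusted p = 0.065). Among 26 genes of xenobiotic and retinoid metabolism, many from club cells and endothelium, 4 fell and none rose (1 rose without 3141 and 2 without 3137), including Fmo1 from 461, 485 and 465 to 173, 138 and 139.8 CPM (-1.65 ± 0.30, adjusted p = 7.6e-04) and Cyp4b1 from 589, 604 and 609 to 247, 226 and 253 CPM (-1.31 ± 0.22, adjusted p = 4.3e-04).

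Interferon-stimulated genes were moderately higher, 8 of 29 type I genes and 8 of 34 genes of the interferon-gamma response and antigen presentation (5 with the length term), with no fall in either group. Isg15, a ubiquitin-like protein, went from 5.06, 6.26 and 5.38 to 14.96, 20.5 and 22.8 CPM (1.80 ± 0.24, adjusted p = 9.0e-05) and Ifit1, an RNA sensor, from 18.7, 20.4 and 17.2 to 44.03, 51.6 and 53.5 CPM (1.40 ± 0.18, adjusted p = 6.1e-05). H2-Aa, a chain of the MHC class II complex, rose from 484, 521 and 440.5 to 1184, 1629 and 1582 CPM (1.60 ± 0.24, adjusted p = 2.1e-04) and H2-Ab1, its partner, to a similar degree (1.32 ± 0.26, adjusted p = 0.0015). The GTPase Gbp2 overlapped between groups at 68.6, 103 and 85.8 CPM in controls and 77.2, 123 and 99.8 CPM after 75 Gy.

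The letters GAAANNGAAA, a form of the interferon response element, are held on either strand by a promoter of 10 of the 21 type I genes in the table (47.6%), of 11 of 23 in the interferon-gamma group (47.8%) and of 3.46% of all 27025 genes. Windows of Isg15 at chr4:156200862-156200921 on the minus strand and of Ifit1 at chr19:34640760-34640819 on the plus strand are shown because both genes were higher, with the motif, or its reverse complement TTTCNNTTTC, in capitals.
Isg15: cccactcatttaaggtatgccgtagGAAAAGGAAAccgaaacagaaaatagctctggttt
Ifit1: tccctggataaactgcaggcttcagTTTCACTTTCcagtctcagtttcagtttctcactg
The motif lies 68 bases from the start of Isg15 and 94 bases from that of Ifit1, in RefSeq's annotation of GRCm38.p6. Of the other 8 type I holders, Oas1g, Oas1a and Ifit3 were called higher and Oas3, Trim30a, Bst2, Stat2 and Rsad2 were not called. Here too a match of letters is no evidence of binding.

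Complement and acute-phase genes rose in 14 of 30 cases with no fall (median 1.25), among them C1qb and Saa3 above. Fgg, a fibrinogen chain usually made in the liver, was not in this group and rose from 0.535, 0.178 and 0.908 to 20.8, 18.2 and 20.2 CPM (5.18 ± 0.55, adjusted p = 1.8e-05). The central component C3 was at 518, 656 and 648 CPM in controls and 1078, 1123 and 980.2 CPM after 75 Gy (0.81 ± 0.20, adjusted p = 0.0054), short of the threshold. Eicosanoid genes had 11 rises and 2 falls among 28. Hpgds, which makes prostaglandin D2, went from 2.71, 2.01 and 2.199 to 13.4, 15.9 and 15.6 CPM (2.69 ± 0.21, adjusted p = 1.0e-06) and Tbxas1, the thromboxane synthase, from 10.9, 10.6 and 9.06 to 42.1, 46.5 and 45.5 CPM (2.13 ± 0.23, adjusted p = 2.0e-05). Hpgd, the enzyme that degrades prostaglandins, fell from 687, 608 and 701 to 226, 249.5 and 243 CPM (-1.47 ± 0.39, adjusted p = 0.0083). The leukotriene enzyme Alox5 overlapped between groups (-0.27 ± 0.14, adjusted p = 0.14).

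Targets of p53, the factor that answers DNA damage, were higher in 12 of 39 cases with no fall. Cdkn1a, the cell cycle inhibitor p21, went from 40.97, 53.9 and 51.2 to 226, 259 and 289 CPM (2.41 ± 0.16, adjusted p = 2.3e-07) and Psrc1, a spindle protein, from 1.2, 1.59 and 1.03 to 15.8, 17.1 and 18.1 CPM (3.74 ± 0.19, adjusted p = 2.4e-08). Mdm2, the feedback inhibitor of p53, was at 71.5, 70.7 and 75.1 CPM in controls and 97.8, 106 and 127 CPM after 75 Gy (0.61 ± 0.13, adjusted p = 0.0020). Among 30 senescence-associated genes 13 rose and 1 fell (2 fell without 3135, 3137 or 3141 or with the length term), a group that shares inflammatory and protease genes with those above. Cdkn2a, the inhibitor gene most tied to senescence, rose from 0.795, 0.588 and 0.489 to 1.74, 2.14 and 1.94 CPM (1.63 ± 0.38, adjusted p = 0.0043), and Lmnb1, whose loss marks the state in culture, overlapped between groups (0.066 ± 0.17, adjusted p = 0.79).

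Cell cycle genes were higher in part, 23 of 70 mitotic and 7 of 40 replication genes, with no fall. Spc25, a kinetochore protein, went from 1.103, 1.25 and 1.64 to 3.31, 4.6 and 3.98 CPM (1.57 ± 0.26, adjusted p = 3.6e-04) and Gins2, part of the replication helicase, from 1.52, 1.62 and 1.55 to 3.46, 5.095 and 4.802 CPM (1.51 ± 0.28, adjusted p = 0.0010). Mki67, the usual marker of cycling cells, was at 35.01, 22.6 and 22.4 CPM in controls and 34.7, 39.3 and 34.9 CPM after 75 Gy and overlapped. Of 28 NRF2 and superoxide genes 7 rose and 1 fell (none fell without 3137, 3141 or 3142), with Hmox1, heme oxygenase, at 29.2, 30.2 and 30.6 CPM in controls and 68.2, 60.6 and 81.1 CPM after 75 Gy (1.22 ± 0.23, adjusted p = 0.0011) and Slc7a11, the cystine carrier, at 4.17, 3.62 and 4.36 CPM in controls and 11.7, 14.8 and 15.5 CPM after 75 Gy (1.79 ± 0.29, adjusted p = 3.9e-04). Among 31 genes of sterol and fatty acid synthesis 2 rose (1 without 3136, 3141 or 3143 or with the length term), including Scd1, the stearoyl desaturase of type 2 cells and adipocytes, from 1938, 2009 and 2334 to 5448, 4602 and 4969.7 CPM (1.26 ± 0.17, adjusted p = 1.1e-04). Adipocyte genes had no call among 15 (1 rise without 3137), and clock genes 1 fall among 16 (none without 3136, 3142 or 3143).

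At 2 weeks, the inflammation stage, 75 Gy was compared with controls of its own age, and 1707 genes differed (7.74% of those tested), 1250 higher (5.67%) and 457 lower (2.07%). Genes called higher at both times numbered 789, of 1606 at 6 weeks and 1250 at 2 weeks, and genes called lower at both times 186, of 691 and 457. A further 7 genes were called in opposite directions. The test of the difference between the 2 effects, an interaction term, called 56 genes (0.254%), 47 with a more positive effect at 6 weeks (0.213%) and 9 with a more negative one (0.0408%), and 3543 genes had an unadjusted p under 0.05. With 1 library left out the number called ranged from 29 (without 3142 or 3143) to 104 (without 3132, at 2 weeks), and DESeq2 called 299. A call at only 1 time is therefore no sign that the effects differ.

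Of 18 proteoglycan genes 2 passed this test, both more positive at 6 weeks. Dcn went from a log2 fold change of -0.78 at 2 weeks to 0.83 at 6 weeks (difference 1.60 ± 0.25, adjusted p = 0.013) and Lum from -0.33 to 1.14 (difference 1.47 ± 0.26, adjusted p = 0.027). Col28a1 went from 0.52 to 2.84 (difference 2.33 ± 0.33, adjusted p = 0.0084) and Mmp19 from 0.79 to 2.18 (difference 1.39 ± 0.22, adjusted p = 0.013). Eln, by contrast, was 0.51 and 1.84, a difference that did not pass (1.33 ± 0.35, adjusted p = 0.13). Secreted signals on this list were Areg (-0.17 and 2.80, difference 2.97 ± 0.55, adjusted p = 0.033), Fgf9 (-0.50 and 2.30) and Dkk2 (0.42 and 2.49). Cpa3 of mast cells (0.50 and 3.57, difference 3.07 ± 0.54, adjusted p = 0.027) and Ighg1 (2.60 and 7.18, difference 4.58 ± 0.89, adjusted p = 0.044) also had a more positive effect at 6 weeks. Marco was the opposite, higher at 2 weeks (2.62) and not at 6 weeks (0.27, difference -2.35 ± 0.40, adjusted p = 0.020).

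Whole groups can be set side by side at the 2 times. Mitotic genes had 55 rises among 70 at 2 weeks (median 1.65) and 23 at 6 weeks (median 0.78), and interferon-gamma genes 21 (median 1.13) and 8 (median 0.37) among 34. Pan-endothelial genes had 6 falls at 2 weeks (median -0.75) and 15 at 6 weeks. The test of the difference itself was passed by 1 of the 70 mitotic, 0 of the 34 interferon-gamma and 0 of the 22 pan-endothelial genes. Heavy-chain V segments had no call at 2 weeks and 53 at 6 weeks, and 2 of the 93 passed the test of the difference itself. A segment that passed the minimum count only through irradiated libraries of 6 weeks could hardly be called at 2 weeks. The segment counts at the 2 times are therefore a description. Foamy macrophage genes were high at both times (medians 1.52 and 1.56).

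**Figure D5:**
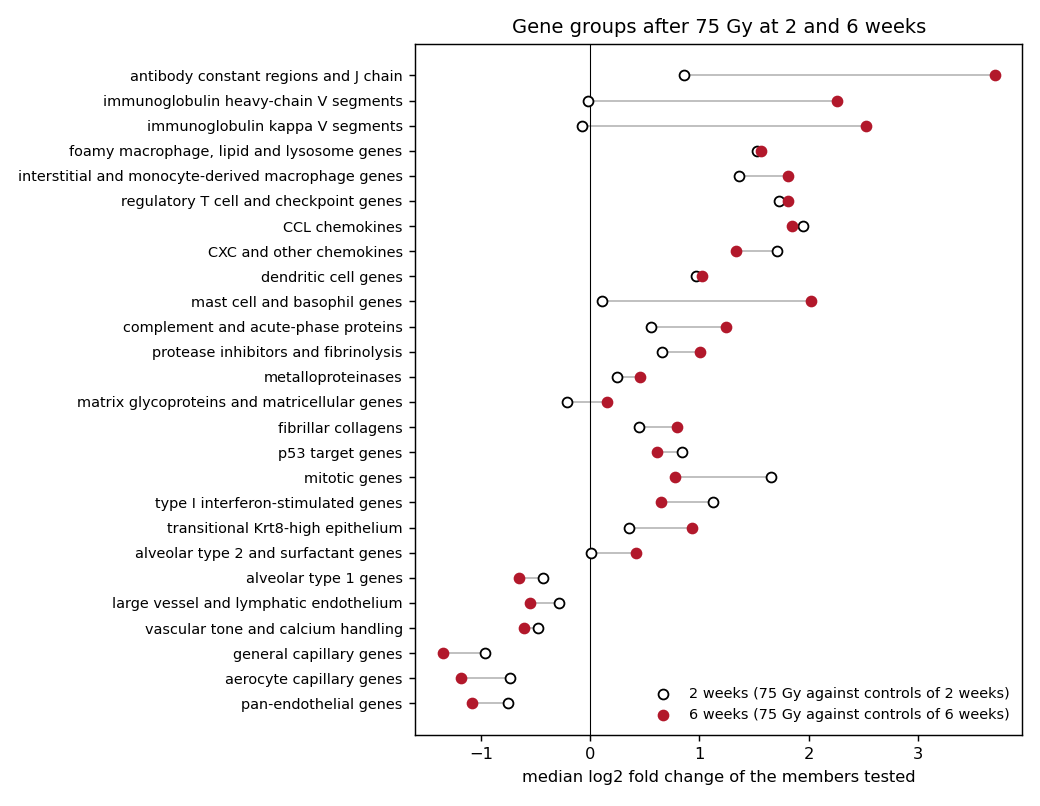
For 26 gene groups, points give the median log2 fold change of 75 Gy over the control of the same time at 2 weeks and at 6 weeks, joined by a line. The mitotic and type I interferon groups are nearer to 0 at 6 weeks, antibody groups are farther above 0, and the endothelial groups are farther below 0. Any antibody segment that passed the minimum count only through irradiated libraries of 6 weeks had to be higher there, so the antibody medians are a description.

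Lungs given 65 Gy were compared with the same 3 controls at 6 weeks, from 2 libraries, so the results of the doses share their controls. At 65 Gy 1164 genes differed (5.28%), 956 higher (4.34%) and 208 lower (0.943%). Side by side, the log2 fold changes at 75 and 65 Gy were 4.56 and 4.04 for Spp1, 5.70 and 5.49 for Mmp12, 3.92 and 3.74 for Igha, 1.84 and 1.84 for Eln and -1.40 and -0.91 for Cdh5. The medians were 1.56 and 1.29 for foamy macrophage genes and -1.08 and -0.85 for pan-endothelial genes. The direct test of 75 against 65 Gy at 6 weeks called 0 of 22052 genes by edgeR's quasi-likelihood test, while 1431 genes had an unadjusted p under 0.05, edgeR's exact test called 11 and DESeq2 called 14. With 2 libraries in one group, a difference between the doses may have gone undetected, and these numbers do not show that the doses act alike.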

How the data were processed

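Counts per gene from stranded poly(A) RNA-seq of 17 lung libraries were used as the authors deposited them in 1 table, not normalized. According to the methods, the authors trimmed reads, aligned them to GRCm38.p6 and assembled transcripts and estimated expression with StringTie, and the use of strand and the treatment of reads that match several genes are not given in the sources used here. Antibody, MHC and other paralogous genes, and overlapping genes, are therefore uncertain.

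Genes were kept with filterByExpr (minimum count 10, minimum total 15), scaled by TMM and fitted in edgeR 4.0.16 (R 4.3.3) over all 17 libraries with 1 coefficient per group, since sharing the spread uses every replicate. The quasi-likelihood test with Benjamini-Hochberg adjustment gave 5 further contrasts: 75 Gy at 2 weeks, 65 Gy at 6 weeks, 75 against 65 Gy, the difference of the effects at 6 and 2 weeks, and control age. The scripts were tested on simulated data. Alternatives used DESeq2 1.42.0, other filters, factors and tests, and each library left out in turn. Transcript lengths came from GENCODE vM21, and lengths were found for 87.9% of tested genes. Depth ran from 54704261 to 62021693 counts in the 6 libraries.

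The gene groups and their members were chosen with earlier results of these data known. Named genes were fixed key members of each group and, in each group and direction, the called genes with the smallest p-values. These are not always the largest changes of a group. Also named were the largest called rises and falls among all genes whose average level reached 1 log2 CPM. The interactions with the smallest p-values in each direction and genes that 1 library decided were added. Groups overlap, so a gene can count in several. Some genes that this rule names are not reported here.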

Additional observations from a re-analysis of the deposited data

Results flagged for a closer look

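For 8 genes, the effect of 75 Gy differed between 6 and 2 weeks by the interaction term of edgeR's quasi-likelihood test, each passing after Benjamini-Hochberg adjustment over all genes. Their values are given without an explanation, and the cause of the differences was not tested.

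In 4 genes the effect was more positive at 6 weeks. Apod, apolipoprotein D, a small lipid carrier, had a log2 fold change of 0.60 at 2 weeks and 2.73 at 6 weeks (difference 2.13 ± 0.26, adjusted p = 0.0056), with 6.32, 7.17 and 10.1 CPM in the controls of 6 weeks and 45.4, 49.8 and 61.99 CPM after 75 Gy. Cpxm2, a carboxypeptidase-like protein, went from -0.70 to 2.37 (difference 3.07 ± 0.41, adjusted p = 0.0068), with 0.973, 1.43 and 1.798 CPM in controls and 5.56, 7.45 and 8.69 CPM after 75 Gy at 6 weeks. Fcrls, a receptor of macrophages, went from 0.98 to 2.81 (difference 1.82 ± 0.24, adjusted p = 0.0068), with 4.23, 4.69 and 5.31 CPM in controls and 25.4, 38.5 and 35.8 CPM after 75 Gy. All 3 genes were higher in each irradiated library of 6 weeks than in any control. Iglv1, a lambda V segment, went from 0.26 to 3.58 (difference 3.32 ± 0.44, adjusted p = 0.0068), with 7.96, 5.51 and 5.03 CPM in controls and 76.3, 58.6 and 87.1 CPM after 75 Gy.

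In the other 4 genes the effect was more negative at 6 weeks. Mcidas, a regulator that starts the making of cilia, was higher at 2 weeks (1.63) and lower at 6 weeks (-2.66), a difference of -4.29 ± 0.53 (adjusted p = 0.0056), with 0.827, 0.6596 and 0.873 CPM in controls and 0.0656, 0.177 and 0.128 CPM after 75 Gy at 6 weeks. Bhlhe41, a transcriptional repressor of the clock that alveolar macrophages also use, went from 2.33 to 0.28 (difference -2.05 ± 0.23, adjusted p = 0.0043). Clock genes also differed between the controls, 6 of 16 being higher and 2 lower at 6 weeks than at 2 weeks (0.24% and 0.336% of all genes). The part this had in the difference for Bhlhe41 was not tested. Ccdc184 went from 1.40 to -0.21 (difference -1.61 ± 0.23, adjusted p = 0.0084). Apln, apelin, a ligand of aerocytes, went from 0.56 to -0.70 (difference -1.26 ± 0.20, adjusted p = 0.015), with 58.7, 56.3 and 53.9 CPM in controls and 38.7, 37.2 and 28.1 CPM after 75 Gy at 6 weeks. For Bhlhe41, Ccdc184 and Apln the fold change at 6 weeks did not pass the threshold on size.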

How the results depend on the processing

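The comparison of 75 Gy with control at 6 weeks gave between 1777 and 2548 genes with 1 library left out (1290 to 1648 higher, 487 to 900 lower). Settings other than these moved the count of 2297 by more than 1.5 times in 2 cases. With the adjusted p alone it was 7935 (3963 higher, 3972 lower) and with a test against the size threshold (glmTreat) 487 (448 and 39). With at least 10 counts in every library it was 1636, of which 1050 were higher against 1606. The share of calls that were rises was 69.9%, 49.9% with the adjusted p alone, 91.99% with glmTreat and 64.2% to 73.7% otherwise. For the difference between 6 and 2 weeks, 56 genes (47 and 9) became 299 (204 and 95) with DESeq2 and 0 (0 and 0) with glmTreat, 14 were more negative with the adjusted p alone, and leaving out 1 library gave 29 to 104 (25 to 72 more positive, 4 to 35 more negative). The libraries that moved these counts by over 1.5 times were 3126, 3132, 3134, 3135, 3136, 3137, 3141, 3142 and 3143. For 75 against 65 Gy, 0 calls became 1 (lower) with every gene that had a count, 11 (5 higher, 6 lower) with the exact test, 14 (9 and 5) with DESeq2, 1 (higher) with only the groups compared, 3 (all lower) with the length term, and 0 to 4 (0 to 1 higher, 0 to 3 lower) with 1 library left out. The causes of these moves were not tested. Of 325 named genes 262 kept their call in every alternative, and none reversed. Without 65Gy_6w library 3138 or 3140, the lone library was assumed to vary like the other groups. No paired analysis was possible because the groups share no library numbers.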

Other observations

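Genes outside the groups above were also among the largest changes. H2-M2, a non-classical MHC class I gene of dendritic cells, went from 0.746, 1.21 and 0.908 CPM in controls to 16.1, 28.1 and 28.2 CPM after 75 Gy (log2 fold change 4.66 ± 0.83, adjusted p = 6.9e-04, quasi-likelihood test of edgeR, Benjamini-Hochberg adjustment). Stra6l, a relative of the vitamin A transporter, went from 0.438, 0.535 and 0.384 to 11.5, 10.2 and 11.7 CPM (4.61 ± 0.40, adjusted p = 3.2e-06). Both were at a high level in every irradiated library and in no control. Tmem132d, a membrane protein, fell from 9.55, 11.2 and 9.16 to 2.87, 1.38 and 1.53 CPM (-2.36 ± 0.36, adjusted p = 2.2e-04), and Bex2 from 24.2, 31.98 and 24.2 to 7.51, 5.31 and 5.37 CPM (-2.14 ± 0.40, adjusted p = 9.4e-04).

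Among 28 laminin and integrin genes 1 rose and 1 fell (2 fell without 3141). Itga7, the laminin-binding integrin of muscle, rose from 18.2, 15.7 and 20.1 to 45.9, 39.2 and 38.1 CPM (1.19 ± 0.17, adjusted p = 1.6e-04), and Itga1, a collagen receptor of capillaries, fell from 229.8, 187 and 199 to 74.3, 67.1 and 61.4 CPM (-1.60 ± 0.15, adjusted p = 5.9e-06). Of 10 colony-stimulating factors and receptors 2 rose and 1 fell. The rises were the shared receptor chain Csf2rb (1.46 ± 0.28, adjusted p = 0.0012) and its mouse duplicate Csf2rb2 (2.09 ± 0.36, adjusted p = 5.1e-04), whose reads may not have been told apart, while Csf2 itself overlapped between groups at 1.39, 1.53 and 1.34 and 1.903, 1.19 and 1.37 CPM. Among 19 eosinophil and type 2 genes 6 rose and 1 fell (3 rose without 3137, 3142 or 3143 or with the length term, and none fell without 3135, 3136, 3137, 3142 or 3143). Ccl11, the eosinophil attractant eotaxin, went from 3.08, 3.49 and 4.82 to 9.61, 16.7 and 16.01 CPM (1.89 ± 0.22, adjusted p = 3.2e-05), and Il4 was near the floor of detection at 0.162, 0.125 and 0.0873 and 0.115, 0.106 and 0.164 CPM. Of 18 immediate early and heat shock genes 3 rose (5 without 3135, and 1 without 3136, 3137 or 3143), including Egr2, from 16.5, 8.896 and 9.37 to 32.5, 40.8 and 58.2 CPM (1.92 ± 0.40, adjusted p = 0.0020). Of 13 pleural mesothelium genes 1 rose and 1 fell (none fell without 3136, 3142 or 3143), and Msln overlapped between groups at 9.47, 30.6 and 14.5 and 21.1, 22.2 and 14.8 CPM. Between the controls of 6 and 2 weeks 127 genes differed, 53 higher and 74 lower at 6 weeks (0.576% of those tested). The lower genes included 6 of the 18 immediate early and heat shock genes.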
